A study of Mus musculus with 6 samples.

Results

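The 35 genes described here are glycolytic enzymes, glucose and lactate transporters, pyruvate dehydrogenase with its kinases, the enzymes that set the regulatory fructose bisphosphate of phosphofructokinase, and HIF-1 (hypoxia-inducible factor 1) with targets of it. They were taken by symbol from a deposited table of 16403 genes, and each of the 35 matched 1 gene of the table. Messenger RNA was measured by bulk sequencing of LSK cells, the lineage-negative, Sca-1-positive, Kit-positive fraction of mouse bone marrow that holds hematopoietic stem cells and early progenitors. The 3 LIP libraries came from C57BL/6 mice with ligature-induced periodontitis, in which a ligature around a tooth lets bacteria accumulate and inflames the gum, and the 3 NL libraries from unligated C57BL/6 mice. Marrow was harvested on day 7, and each library pooled the cells of 3 mice. The labels give no age, and p-values below measure the spread between these pools.

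Glycolysis splits glucose into pyruvate in the cytosol, and lactate dehydrogenase then turns pyruvate into lactate while restoring the oxidised cofactor that glycolysis needs. Pyruvate dehydrogenase instead passes pyruvate to the mitochondrial tricarboxylic acid cycle, and its kinases switch that entry off. In low oxygen HIF-1 escapes hydroxylation and degradation and switches on many of these genes. Marrow stem cells live at low oxygen and are known for using glycolysis and for keeping pyruvate out of mitochondria. HIF-1 is set largely at the level of its protein, which messenger RNA does not report.

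Library totals lay between 17890024 and 18841103 counts in LIP libraries, against 17780853 and 17962433 in NL libraries. At that depth and scaling 3 counts stood for 0.157 to 0.171 CPM, a floor that covers counting error only. Kit, which defines the sorted fraction, had 576, 592 and 576 CPM in LIP libraries, against 514, 515 and 508 CPM in NL libraries, and Ly6a, which encodes Sca-1, had 35.6 to 39.8 CPM in LIP libraries, against 38.3 to 39.7 CPM in NL libraries. CPM here means counts relative to the library size, scaled with TMM factors, and it compares 1 gene between libraries. TPM also divides by transcript length and is used to compare the levels of different genes. A gene was called when its adjusted p in edgeR's quasi-likelihood test with Benjamini-Hochberg adjustment over 12564 tested genes was below 0.05, and every adjusted p given below without another name comes from that test. Kit was itself called higher in LIP libraries, with a log2 fold change of 0.18 (adjusted p = 8.16e-06). Ly6a was not called (log2 fold change -0.066, adjusted p = 0.386).

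LSK cells of LIP mice had more mRNA for the hexokinases Hk1, Hk2 and Hk3, the phosphofructokinase Pfkp, the phosphofructokinase activator Pfkfb3, the pyruvate dehydrogenase kinase Pdk1 and the oxygen-sensing hydroxylase Egln1. They had less for the glycolytic enzymes Tpi1 and Ldha, the glucose transporter Slc2a1, Hif1a itself and the hypoxia- and stress-responsive genes Ddit4 and P4ha1. In TPM with no centring Ldha and Hif1a were at 0.01 and 0.00 on the log2 scale, where the median tested gene was at 0.11. With each library's TPM centred on its median gene, Ldha was called lower. Hif1a was then at -0.11 and was not called (adjusted p by limma 0.101). Only Hk2, Pfkp, Pdk1 and P4ha1 were called in every alternative in which they could be fitted. The rest of the called genes lost the call in some alternatives with another test, scaling, length offset or set of libraries. Tpi1 and Ddit4 lost it only in TPM with no centring. All 35 genes passed the filter on low counts, 7 were called higher and 6 lower, and 22 did not pass the test. Of all tested genes, 14.1% were called higher and 15.8% lower, or 29.9% in either direction, against 37.1% of the 35. The size of the differences was small: the log2 fold changes ran between -0.30 and 0.33, with a median of 0.012 against -0.00072 over all tested genes. The median absolute log2 fold change of the 35 genes was 0.082, against 0.10 over all tested genes. In bulk samples, fewer cells of a type and less RNA per cell cannot be told apart.

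The split between directions depended on the scaling. With library totals alone as scaling, 11 of the 35 genes were called higher and 3 lower, against 21.9% and 10.4% of all tested genes. With limma on log2(TPM + 1), in which the median of all tested genes moved to 0.11, 23 were called higher and 1 lower, against 36.4% and 4.30% of all tested genes. With each library's TPM centred on its median gene, 7 were called higher and 5 lower, against 9.89% and 12.2% of all tested genes. Directions below are relative to the TMM scaling.

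In 16 of the 35 genes the 3 LIP libraries did not overlap the 3 NL libraries in CPM, 9 with LIP above and 7 with LIP below, against 19.9% and 21.0% of all tested genes, or 40.9% in either direction. The share of called genes also moved with CPM, which ranks genes by their counts and not per length. It was 13.8% in the lowest quartile of tested genes by mean CPM, then 27.0%, 34.2% and 44.7% in the highest. The 35 genes counted 1, 8, 10 and 16 in these quartiles, with 0, 2, 5 and 6 called.

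**Figure D1:**
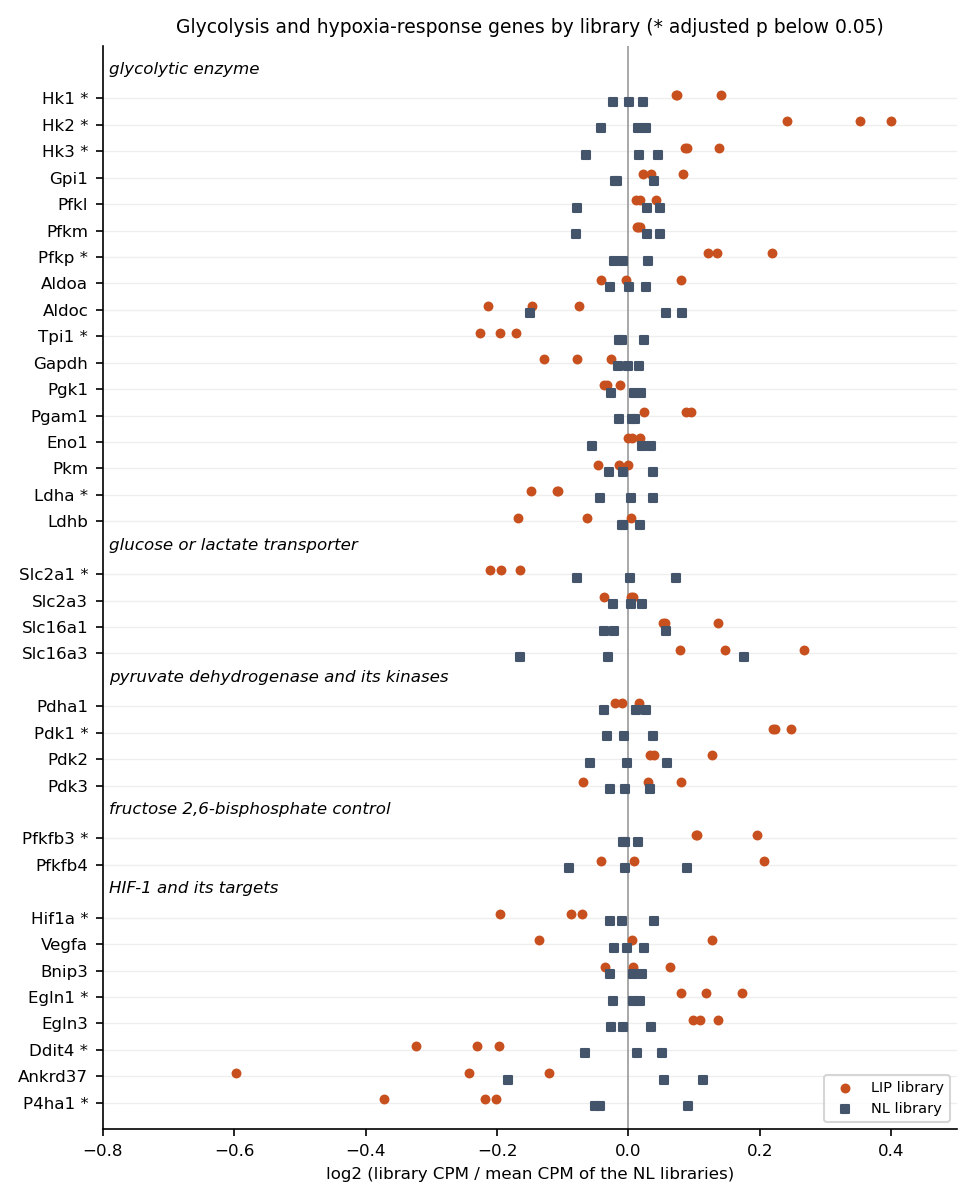
CPM of the 35 genes in each library, as the log2 ratio to the NL mean of that gene, with a circle for each LIP library, a square for each NL library, and genes grouped by role. Log2 fold changes ran between -0.30 and 0.33, with Hk2 at the top of that range and Ankrd37, which was not called, at the bottom.

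Hexokinases phosphorylate glucose and so trap it in the cell. Hk2, the inducible isozyme that binds mitochondria, had 47.1, 52.5 and 50.8 CPM in LIP libraries, against 38.7, 40.2 and 40.6 CPM in NL libraries. The lowest LIP library exceeded the highest NL library. The log2 fold change was 0.33 ± 0.051 (adjusted p = 4.78e-07), or 26.0% more. Hk1, the isozyme of most tissues, had 289.6, 304 and 289.9 CPM in LIP libraries, against 276, 279.8 and 271 CPM in NL libraries, without overlap between the groups. Its log2 fold change was 0.096 ± 0.032 (adjusted p = 0.0187), and the call was lost with an offset for transcript length (adjusted p = 0.0588), without NL library 3 (0.0782) and without LIP library 2 (0.124). Hk3, known from myeloid cells, had 190.3, 190.0 and 197 CPM in LIP libraries, against 171, 181 and 185 CPM in NL libraries, again with every LIP library above every NL library, by a margin smaller than the spread within NL. The log2 fold change was 0.10 ± 0.035 (adjusted p = 0.0164), and it was not called without NL library 1 (adjusted p = 0.143) or without LIP library 3 (0.0642).

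Phosphofructokinase carries out the committed step of glycolysis. Pfkp, its platelet-type subunit, had 65.6, 70.2 and 66.3 CPM in LIP libraries, against 59.4, 60.0 and 61.6 CPM in NL libraries, and the groups did not overlap. Its log2 fold change was 0.16 ± 0.044 (adjusted p = 0.00408), or 11.6% more; the counts of Pfkp were not whole numbers in the deposited table. The liver-type subunit Pfkl and the muscle-type subunit Pfkm were not called, with log2 fold changes of 0.024 (adjusted p = 0.653) and 0.015 (adjusted p = 0.84). Pfkfb3 makes the regulatory fructose bisphosphate that activates phosphofructokinase, and had 68.3, 72.8 and 68.2 CPM in LIP libraries, against 63.1, 63.3 and 64.1 CPM in NL libraries. LIP libraries were all above NL libraries, and the log2 fold change was 0.14 ± 0.043 (adjusted p = 0.0131). Pfkfb3 was not called by DESeq2 (adjusted p = 0.0687) or without LIP library 2 (0.106). Pfkfb4, a second enzyme of that family, had 17.3 to 20.5 CPM in LIP libraries, against 16.7 to 18.9 CPM in NL libraries, and was not called (log2 fold change 0.062, adjusted p = 0.578).

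Below the committed step, log2 fold changes went in both directions, and Tpi1 differed by more than Hk1, Hk3, Pfkp and Pfkfb3 did. Tpi1, which interconverts the 3-carbon phosphates, had 354, 347 and 360.0 CPM in LIP libraries, against 402, 412 and 403 CPM in NL libraries. Every LIP library was below every NL library, and the log2 fold change was -0.20 ± 0.032 (adjusted p = 1.50e-06), or 12.8% less. On log2(TPM + 1) with no centring Tpi1 was at -0.069 and was not called (adjusted p by limma 0.0813). Gapdh, which oxidises glyceraldehyde phosphate, had 2644, 2553 and 2742 CPM in LIP libraries, against 2793, 2764 and 2823 CPM in NL libraries. Those groups did not overlap either, but Gapdh was not called (log2 fold change -0.078, adjusted p = 0.091), its counts were not whole, and the difference was 0.044 on log2(TPM + 1) with no centring. DESeq2 called it lower (adjusted p = 0.0402), as did the fit without LIP library 3 (0.0380). Pgam1, a phosphoglycerate mutase, had 418, 399.9 and 420.0 CPM in LIP libraries, against 389, 396 and 395 CPM in NL libraries, also without overlap, and was not called (log2 fold change 0.069, adjusted p = 0.0989); with the transcript length offset it was called higher (0.00913), as with library totals (0.00447), without LIP library 2 (0.0451) and in uncentred TPM (5.32e-04 by limma).

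The other glycolytic enzymes were not called. They were glucose phosphate isomerase Gpi1 (log2 fold change 0.047), the aldolases Aldoa (0.012) and Aldoc (-0.14), phosphoglycerate kinase Pgk1 (-0.028), enolase Eno1 (0.0076) and pyruvate kinase Pkm (-0.021). Their adjusted p ran between 0.242 for Aldoc and 0.895 for Eno1, and the directions of Pgk1 and Pkm turned with the scaling. With library totals Gpi1 was called higher (0.0269). Of the 17 glycolytic enzymes in all, lactate dehydrogenases included, 4 were called higher, 2 lower and 11 were not called. Over all tested genes the shares were 14.1% higher and 15.8% lower.

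Lactate dehydrogenase had its major subunit gene, Ldha, at 629.7, 612 and 629 CPM in LIP libraries, against 658, 680.4 and 696 CPM in NL libraries. LIP libraries were all below NL libraries, with a log2 fold change of -0.12 ± 0.033 (adjusted p = 0.0031), or 8.07% less. The call was lost with library totals alone as scaling (adjusted p = 0.0603), and in uncentred TPM Ldha averaged 726 ± 2.71 TPM in LIP libraries and 722 ± 17.7 TPM in NL libraries (SD, n = 3 each), at 0.0073 on log2(TPM + 1). The second subunit gene, Ldhb, had 39.4 to 44.4 CPM in LIP libraries, against 44.0 to 44.9 CPM in NL libraries, and was not called (log2 fold change -0.075, adjusted p = 0.289).

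**Figure D2:**
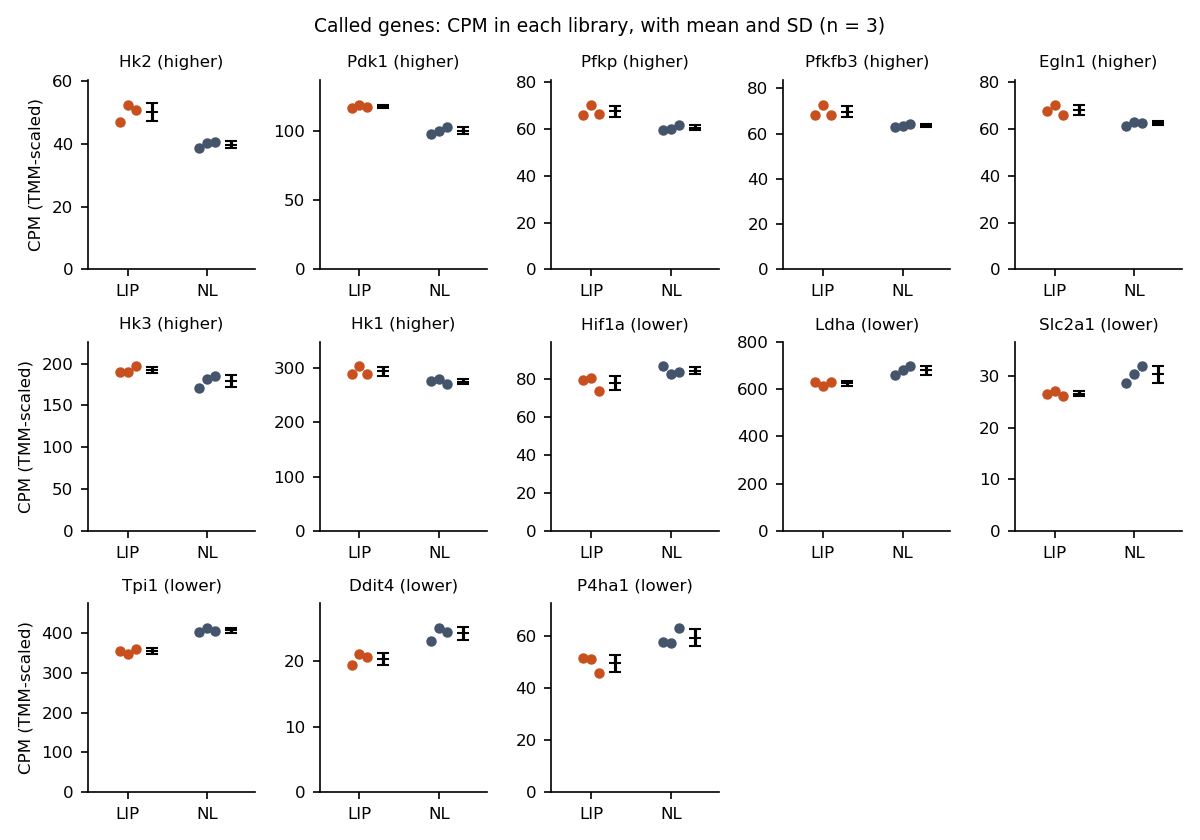
CPM by library for the 13 called genes, with LIP libraries to the left of NL libraries in each panel and the mean ± SD of each group (n = 3) beside its points. Hk2 lies at 47.1 to 52.5 CPM in LIP libraries and 38.7 to 40.6 in NL libraries, and P4ha1 at 45.9 to 51.7 in LIP libraries and 57.4 to 63.3 in NL libraries.

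Among the transporters, Slc2a1, a glucose carrier of many dividing cells, had 26.5, 27.0 and 26.2 CPM in LIP libraries, against 28.7, 30.4 and 31.9 CPM in NL libraries. All LIP libraries were below all NL libraries, and the log2 fold change was -0.19 ± 0.059 (adjusted p = 0.0105). The call was lost by DESeq2 (adjusted p = 0.0837), with library totals (0.0508), without NL library 3 (0.0989) and in uncentred TPM (0.414 by limma). The other glucose carrier, Slc2a3, had 69.0 to 71.1 CPM in LIP libraries, against 69.6 to 71.8 CPM in NL libraries, with a log2 fold change of -0.0091 (adjusted p = 0.904). Slc16a1 and Slc16a3, which carry lactate, were not called, at log2 fold changes of 0.082 (adjusted p = 0.109) and 0.17 (adjusted p = 0.156). Slc16a1 was called higher with library totals (adjusted p = 0.00987). Slc16a3 was called higher without NL library 3, at 0.27 (adjusted p = 0.0389), and was at 0.094 without NL library 1.

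Pdk1, a kinase that inactivates pyruvate dehydrogenase, had 117, 119 and 117 CPM in LIP libraries, against 98.3, 100.1 and 103 CPM in NL libraries. The groups were separated by more than the spread within either of them. The log2 fold change was 0.23 ± 0.037 (adjusted p = 1.89e-06), or 17.3% more. The kinases Pdk2 and Pdk3 and the enzyme's own subunit gene Pdha1 were not called, with log2 fold changes of 0.067 (adjusted p = 0.479), 0.015 (adjusted p = 0.84) and -0.0047 (adjusted p = 0.943), the last above 0 in 7 alternatives.

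Hif1a, which encodes the regulated subunit of HIF-1, had 79.2, 80.2 and 73.6 CPM in LIP libraries, against 86.5, 82.6 and 83.6 CPM in NL libraries. LIP libraries were all below NL libraries, with the highest LIP and the lowest NL library close together. The log2 fold change was -0.12 ± 0.042 (adjusted p = 0.0259), the call was lost in 7 of 19 alternatives, among them DESeq2 (adjusted p = 0.111), and in uncentred TPM the difference was 0.0049. Egln1, the main prolyl hydroxylase that marks HIF-1 for degradation, had 67.8, 70.4 and 66.1 CPM in LIP libraries, against 61.4, 63.2 and 62.7 CPM in NL libraries. Here the LIP libraries were the higher ones in every case, and the log2 fold change was 0.12 ± 0.044 (adjusted p = 0.0237), lost by DESeq2 (adjusted p = 0.101), without NL library 1 (0.0794) and without LIP library 2 (0.127). Egln3, a related hydroxylase and HIF target, had 48.8, 49.7 and 48.4 CPM in LIP libraries, against 46.3, 44.4 and 45.0 CPM in NL libraries, without overlap, and was not called (log2 fold change 0.11, adjusted p = 0.0655). It was called higher with at least 50 counts in every library of a group (adjusted p = 0.0462), with library totals (0.00838) and in uncentred TPM (0.00204 by limma).

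P4ha1, a collagen prolyl hydroxylase subunit and HIF target, had 51.7, 51.1 and 45.9 CPM in LIP libraries, against 57.7, 57.4 and 63.3 CPM in NL libraries. Its LIP libraries were all lower, with LIP library 3 the lowest and NL library 3 the highest. The log2 fold change was -0.26 ± 0.049 (adjusted p = 2.94e-05), or 16.6% less. Ddit4, an inhibitor of the growth kinase mTOR that responds to hypoxia, stress and glucocorticoids, had 19.3, 21.1 and 20.6 CPM in LIP libraries, against 23.1, 25.0 and 24.4 CPM in NL libraries. LIP libraries lay below NL libraries throughout, and the log2 fold change was -0.25 ± 0.066 (adjusted p = 0.00254), or 15.8% less; the call was lost in uncentred TPM (adjusted p by limma 0.111). The growth factor gene Vegfa and the mitophagy receptor gene Bnip3, both HIF targets, were not called, at log2 fold changes of 0.0043 (adjusted p = 0.98) and 0.011 (adjusted p = 0.92). Ankrd37, another HIF target, had the lowest TPM of the 35 genes, 2.24 ± 0.509 TPM in LIP libraries and 2.66 ± 0.307 TPM in NL libraries. It had 0.940 to 1.31 CPM in LIP libraries, against 1.25 to 1.54 CPM in NL libraries, and was not called (log2 fold change -0.30, adjusted p = 0.399).

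Of the 8 genes of HIF-1 and its targets, 1 was called higher and 3 lower. Of the 4 transporters, 0 were called higher and 1 lower; of pyruvate dehydrogenase and its kinases, 1 of 4 was called higher and 0 lower. Over all tested genes 14.1% were called higher and 15.8% lower, and roles of 4 or 8 genes are too few to set against those shares. The called genes of each direction came from several roles. Hk2, Pfkp, Pdk1 and P4ha1 were called in the same direction in every alternative in which they could be fitted. The log2 fold changes of Hk2 ran between 0.29 and 0.43 over these, those of Pfkp between 0.13 and 0.28, those of Pdk1 between 0.20 and 0.36, and those of P4ha1 between -0.29 and -0.15. On GRCm38.p6, per RefSeq, the Hk2 gene spans chr6:82725025-82774454, Pfkp chr13:6579874-6649060, Pdk1 chr2:71873215-71903858 and P4ha1 chr10:59323197-59373304.

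**Figure D3:**
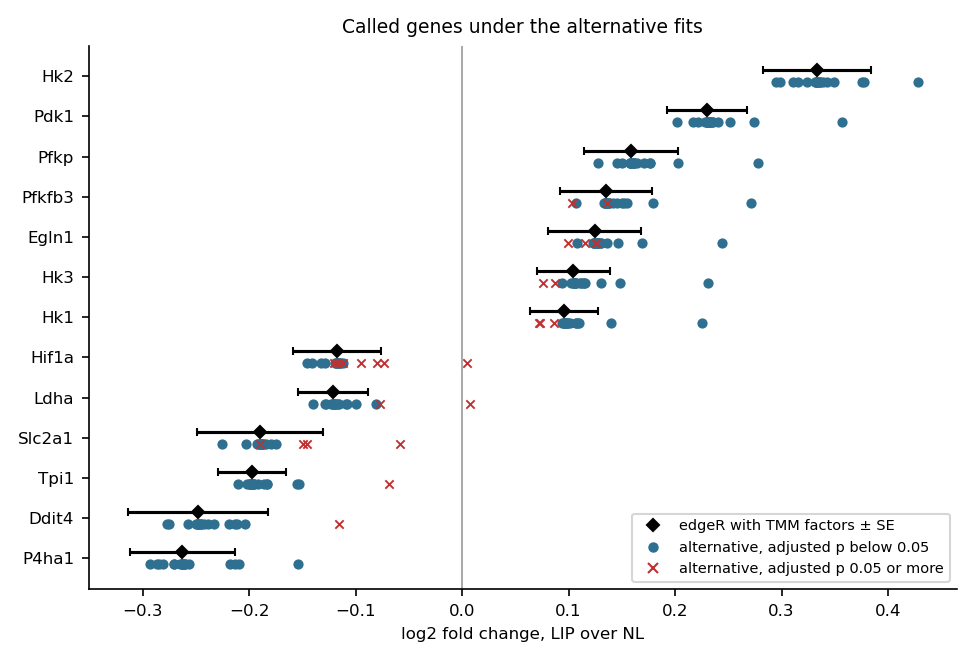
Log2 fold change, LIP over NL, of the 13 called genes in the reported fit (diamonds, ± SE) and in up to 19 alternatives, with dots where the adjusted p was below 0.05 and crosses where it was not. Hk2, Pfkp, Pdk1 and P4ha1 have no cross, and Hif1a has the most, 7.

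Direction moved with transcript length over the whole table. Over quartiles of the authors' effective length, from 122 to 1738 bases up to 4152 to 23532 bases, the share of tested genes called higher was 6.09%, 11.9%, 16.5% and 22.0%. The share called lower was 29.4%, 13.7%, 12.0% and 8.05% in the same order. All 7 genes called higher here lay in the longer 2 quartiles, 4 and 3 of them, and the 6 called lower lay at 3, 1, 1 and 1 from the shortest quartile up. With an offset for the trend on length, Hk1 was the only one of these 13 genes to lose its call.

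Isozyme genes of 1 reaction were compared by their share of summed TPM, which does not depend on the scaling of a library. The trend with transcript length was not taken out of these shares. In each family whose groups did not overlap, the gene with the larger share in LIP libraries was the longest. Effective lengths were 5434 bases for Hk2 against 3792 for Hk1, and 3263 for Pfkp against 3209 for Pfkl. They were 4246 for Pdk1 against 1914 for Pdk3, and 3855 for Slc2a3 against 2488 for Slc2a1. The part of length in the shares was not tested. Hk1 and Hk3 together made up most hexokinase mRNA, and Hk2 was a small part, at 6.21 ± 0.249% in LIP libraries and 5.35 ± 0.0640% in NL libraries (SD, n = 3 each). Every LIP library had a higher Hk2 share than every NL library. Pfkp made up 20.4 ± 0.826% in LIP libraries and 18.8 ± 0.545% in NL libraries of the phosphofructokinase sum, again without overlap, while Pfkl held the largest share, at 56.2 ± 0.457% in LIP libraries and 57.3 ± 1.16% in NL libraries. Pdk1 held 36.7 ± 0.539% in LIP libraries and 33.3 ± 0.900% in NL libraries of the sum over the 3 kinases, and Pdk3 49.9 ± 1.35% in LIP libraries and 53.0 ± 1.21% in NL libraries, with the groups apart for both.

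Slc2a1 held 36.9 ± 0.744% in LIP libraries and 39.9 ± 0.752% in NL libraries of the glucose carrier sum, below NL in every LIP library, the rest being Slc2a3. Shares of the other families overlapped between the groups. Aldoa held 99.0 ± 0.0335% in LIP libraries and 98.9 ± 0.0798% in NL libraries of the aldolase sum, Ldha 92.1 ± 0.339% in LIP libraries and 92.3 ± 0.175% in NL libraries of the lactate dehydrogenase sum and Slc16a1 80.3 ± 1.42% in LIP libraries and 81.5 ± 1.51% in NL libraries of the lactate carrier sum. These shares were described without a test, since the same counts enter the calls above.

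**Figure D4:**
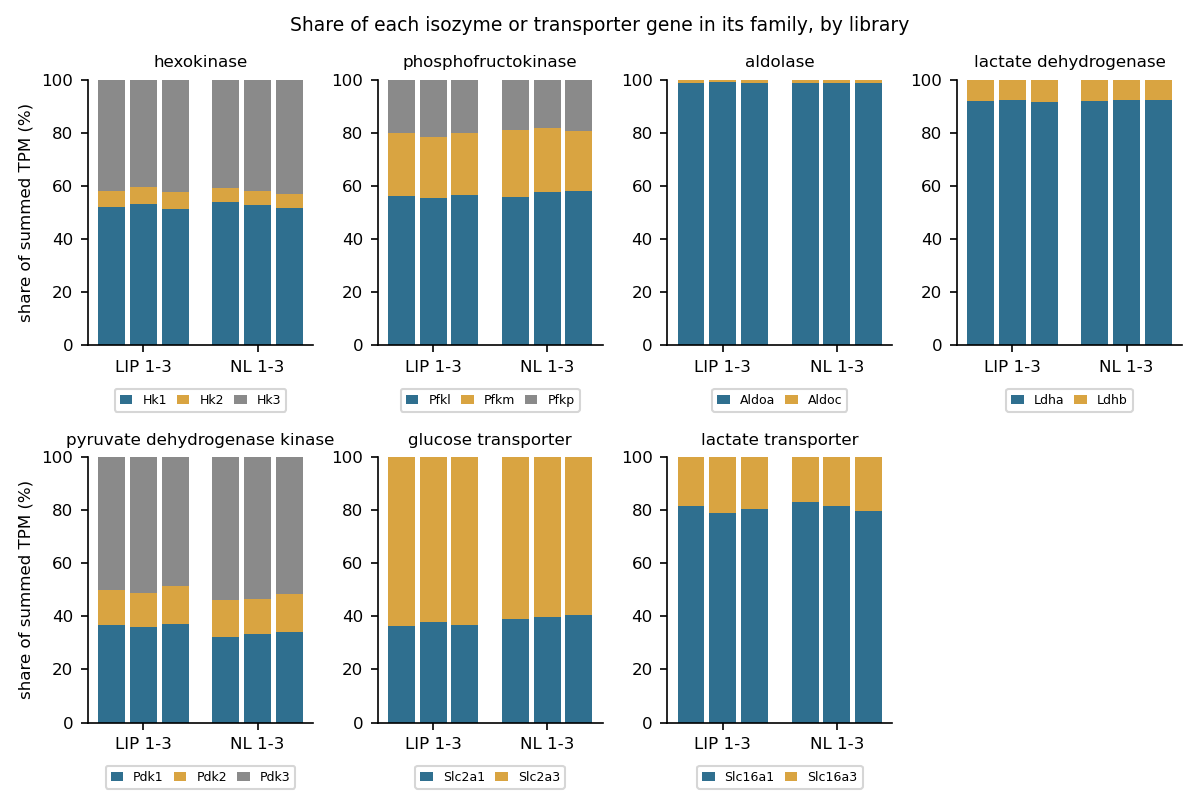
Share of each gene in the summed TPM of its family, in percent, for the 3 LIP libraries and then the 3 NL libraries in each panel. The Hk2 share averages 6.21% in LIP libraries and 5.35% in NL libraries, and the Pdk1 share 36.7% in LIP libraries and 33.3% in NL libraries.

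HIF binds DNA at a short core, ACGTG or GCGTG, and the promoters of the genes called in every alternative are shown with those of Tpi1 and Ldha, the 2 glycolytic enzymes called lower. Each window runs from 250 bases before to 50 bases after a RefSeq transcription start on GRCm38.p6, with the outermost start in the table taken where a gene has several. Capitals mark the core on either strand, so that CACGT and CACGC are the same motifs read from the other strand, and CACGTG holds 2 overlapping matches. Hk2 lies at chr6:82774405-82774704 on the minus strand, Pfkp at chr13:6648722-6649021 on the minus strand, Pdk1 at chr2:71872974-71873273 on the plus strand, P4ha1 at chr10:59323046-59323345 on the plus strand, Tpi1 at chr6:124814109-124814408 on the minus strand and Ldha at chr7:46845554-46845853 on the plus strand.
Hk2: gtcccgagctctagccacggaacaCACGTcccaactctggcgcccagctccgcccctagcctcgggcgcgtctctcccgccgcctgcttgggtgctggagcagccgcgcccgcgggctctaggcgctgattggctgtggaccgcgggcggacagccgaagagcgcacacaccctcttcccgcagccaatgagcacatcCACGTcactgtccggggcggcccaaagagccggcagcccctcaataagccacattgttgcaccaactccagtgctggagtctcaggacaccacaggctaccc
Pfkp: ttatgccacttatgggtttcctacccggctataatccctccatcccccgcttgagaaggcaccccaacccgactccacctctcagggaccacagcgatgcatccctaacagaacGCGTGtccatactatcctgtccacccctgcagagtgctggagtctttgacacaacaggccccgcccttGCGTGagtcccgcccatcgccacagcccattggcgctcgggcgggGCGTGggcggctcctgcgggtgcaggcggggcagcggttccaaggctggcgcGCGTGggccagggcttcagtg
Pdk1: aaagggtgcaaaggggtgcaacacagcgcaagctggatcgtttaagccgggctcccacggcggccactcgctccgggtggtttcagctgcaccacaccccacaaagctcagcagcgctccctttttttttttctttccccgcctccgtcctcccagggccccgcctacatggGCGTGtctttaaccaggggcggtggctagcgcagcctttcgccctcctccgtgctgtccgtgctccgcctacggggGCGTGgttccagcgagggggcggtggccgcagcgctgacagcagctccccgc
P4ha1: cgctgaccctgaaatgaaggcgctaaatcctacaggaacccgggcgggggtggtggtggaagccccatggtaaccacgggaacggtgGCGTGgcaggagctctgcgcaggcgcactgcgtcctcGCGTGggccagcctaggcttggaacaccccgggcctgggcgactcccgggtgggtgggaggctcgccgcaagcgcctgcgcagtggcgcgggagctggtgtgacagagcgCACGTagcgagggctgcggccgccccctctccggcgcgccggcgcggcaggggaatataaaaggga
Tpi1: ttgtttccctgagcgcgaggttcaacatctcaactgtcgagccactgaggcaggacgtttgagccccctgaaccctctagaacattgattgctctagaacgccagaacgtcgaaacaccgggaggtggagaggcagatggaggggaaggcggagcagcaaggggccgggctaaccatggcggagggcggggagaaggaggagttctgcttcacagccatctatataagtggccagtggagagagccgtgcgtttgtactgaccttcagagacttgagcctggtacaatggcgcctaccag
Ldha: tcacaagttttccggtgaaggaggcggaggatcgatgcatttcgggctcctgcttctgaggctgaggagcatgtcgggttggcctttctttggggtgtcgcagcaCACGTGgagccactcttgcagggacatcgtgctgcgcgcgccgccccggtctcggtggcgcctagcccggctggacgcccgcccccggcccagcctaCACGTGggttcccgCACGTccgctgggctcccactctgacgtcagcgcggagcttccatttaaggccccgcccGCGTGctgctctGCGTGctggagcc
The windows hold 2 matches in Hk2, 4 in Pfkp, 2 in Pdk1, 3 in P4ha1, 0 in Tpi1 and 7 in Ldha, the last including both copies of CACGTG. A match is a string of letters, not a binding site.

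The core occurred in 28 of the 34 windows of these genes (82.4%), against 62.8% of the outermost windows of 10088 tested genes and 43.8% of all 32851 windows of the table. Known HIF targets were put on the list, and windows were not matched for base composition. The difference in these shares is therefore a description of the list and was not tested. It was in 6 of the 7 genes called higher, 5 of the 6 called lower and 17 of the 21 not called that had a window. In that order the shares were 85.7%, 83.3% and 81.0%. CACGTG was in 6 of the 34 windows and in 10.2% of those of tested genes. Slc2a3 had no window.

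Other genes of the same pathways were listed for comparison, 112 in all, of which 108 were in the table and 91 were tested. Of these 13 were called higher and 19 lower, 35.2% in all against 29.9% of all tested genes, with a median log2 fold change of 0.0083. Over all tested genes 14.1% were called higher and 15.8% lower. Among 21 tested genes listed with glycolysis and gluconeogenesis, some of them from neighbouring sugar pathways, 0 were called higher and 2 lower. These were Fbp1 and the galactokinase gene Galk1, the second lost in 8 alternatives. The median CPM of these 21 was 20.4, within the quartile of tested genes of which 27.0% were called. Fbp1, a gluconeogenic phosphatase, had 10.01, 8.42 and 9.82 CPM in LIP libraries, against 10.2, 12.8 and 11.1 CPM in NL libraries, without overlap; its log2 fold change was -0.27 ± 0.097 (adjusted p = 0.0263), lost in 7 alternatives. Of 9 other hexose and monocarboxylate transporters, Slc16a6 was called higher, at 59.3, 59.7 and 61.6 CPM in LIP libraries, against 48.8, 49.7 and 53.4 CPM in NL libraries. Slc16a6 had a log2 fold change of 0.25 ± 0.047 (adjusted p = 2.73e-05). The transporter chaperone Bsg and both subunits of the mitochondrial pyruvate carrier, Mpc1 and Mpc2, were called lower; Bsg was not called in 9 alternatives, with a value of 0.039 in uncentred TPM, and Mpc2 was not called in 8. Mpc1 had a log2 fold change of -0.22 ± 0.046 (adjusted p = 1.13e-04), and with the length offset it was not called (adjusted p = 0.0984).

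Of 8 tested pentose phosphate genes, 3 were called higher and 3 lower, beside 14.1% and 15.8% of all tested genes. Of the oxidative branch, G6pdx, Pgd and H6pd were higher and Pgls lower, and of the other branch Rpe and Taldo1 were lower. Pgd lost its call in 7 alternatives, and Pgls and Taldo1 in 6 each. In uncentred TPM Pgls and Taldo1 were at 0.0030 and 0.033, and Pgls was at 0.012 with the length offset. These genes other than H6pd were named after their values were seen. H6pd, the enzyme of the endoplasmic reticulum, had a log2 fold change of 0.22 ± 0.04 (adjusted p = 2.05e-05). Of 8 glycogen genes, the synthase Gys1 was called higher, with 49.4, 47.9 and 48.8 CPM in LIP libraries, against 42.8, 37.5 and 42.4 CPM in NL libraries. Its log2 fold change was 0.25 ± 0.051 (adjusted p = 1.06e-04); the phosphorylase Pygl was also called higher, which was lost in 4 alternatives, and 0 were called lower. Of the 7 tested genes in the rest of the pyruvate dehydrogenase complex, Pdpr was called higher and Pdhb and Dld lower, lost in 2, 1 and 2 alternatives. Bsg, Mpc2, Galk1, Pygl, Pdpr, Pdhb and Dld were also named after their values were seen.

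Among 12 tested regulators, Arnt, the partner subunit of HIF-1, had 52.4 to 54.2 CPM in LIP libraries, against 46.4 to 51.3 CPM in NL libraries. Arnt had a log2 fold change of 0.13 ± 0.048 (adjusted p = 0.038), lost in 8 alternatives. Mlxip was also called higher, and Mlx, Txnip and Arrdc4 lower, with Mlx lost in 1 alternative and Arrdc4 in 2. Txnip and Arrdc4 are glucose-responsive genes that restrain glucose uptake; their log2 fold changes were -0.097 ± 0.032 (adjusted p = 0.0175), lost in 6 alternatives, and -0.21 ± 0.057 (adjusted p = 0.00295), and both were above 0 in uncentred TPM, at 0.031 and 0.077. Vhl, which targets HIF for degradation, and Myc were not called, at log2 fold changes of 0.0083 (adjusted p = 0.939) and 0.048 (adjusted p = 0.286). Epas1, which encodes the HIF-2 subunit, and Pdk4 were too low to be tested, at 5 to 8 counts in LIP libraries, against 5 to 7 in NL libraries for Epas1. Pdk4 had 4 to 5 counts in LIP libraries, against 2 to 7 in NL libraries.

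Of 26 further HIF targets, 4 were called higher and 6 lower, beside 14.1% and 15.8% of all tested genes. Vldlr, a lipoprotein receptor, had 59.9, 62.8 and 58.5 CPM in LIP libraries, against 47.9, 44.0 and 46.8 CPM in NL libraries, without overlap. Its log2 fold change of 0.39 ± 0.048 (adjusted p = 2.57e-09) was larger than that of any of the 35 genes. Zfp395 and the collagen lysyl hydroxylase Plod1 were higher, at log2 fold changes of 0.20 ± 0.049 (adjusted p = 9.67e-04) and 0.20 ± 0.076 (adjusted p = 0.0362), the second lost in 8 alternatives. Ero1l was the other one called higher. Fam162a was lower, with 26.7, 24.6 and 27.8 CPM in LIP libraries, against 30.9, 34.1 and 35.3 CPM in NL libraries. Its log2 fold change was -0.34 ± 0.06 (adjusted p = 8.70e-06); with the length offset it was at -0.14 and was not called (adjusted p = 0.0749). Kdm3a, Higd1a, Mif, Tfrc and Jmjd6 were also called lower, with Kdm3a lost in 7 alternatives, Higd1a in 8, Tfrc and Jmjd6 in 1 each, and Mif called higher with the length offset, at 0.078 (adjusted p = 0.0406). Bnip3l, the mitophagy relative of Bnip3, was not called (log2 fold change -0.084, adjusted p = 0.0557, and 0.043 in uncentred TPM). Mlxip, Mlx, Ero1l, Kdm3a, Higd1a, Mif, Tfrc and Jmjd6 were named after their values were seen.

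**Figure D5:**
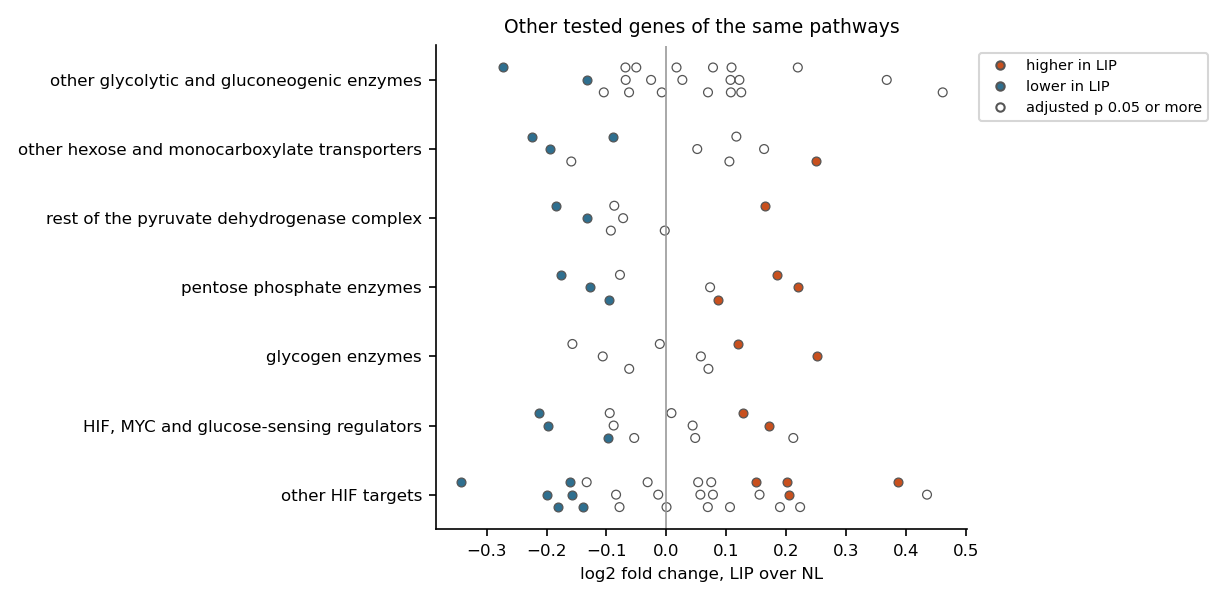
Log2 fold change, LIP over NL, of the 91 tested genes listed beside the 35, by pathway, with filled points where the adjusted p was below 0.05. Vldlr at 0.39 and Fam162a at -0.34 are the outermost called genes, and the open points farther right did not pass the test.

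Markers of several lineages differed between the groups beside these genes, and 0 of the listed markers were at 0 in all libraries. The shares over all tested genes, to be read beside the counts that follow, were 14.1% called higher and 15.8% called lower. Of 12 tested mature neutrophil markers 10 were called higher and 0 lower, with a summed level of 388 to 405 CPM in LIP libraries, against 274 to 289.9 in NL libraries. Ly6g, which defines mature neutrophils, had 0 to 1 counts in LIP libraries, against 0 to 3 in NL libraries. Of 10 monocyte and macrophage markers 8 were called higher and 1 lower, with 1051 to 1085 CPM in LIP libraries and 808 to 829 in NL libraries. Of 10 erythroid markers 3 were called higher and 4 lower, with sums of 1140.4 to 1184 CPM in LIP libraries and 1269.6 to 1303 in NL libraries. Most of these sums came from Car2 and Car1, with means of 663 and 270 CPM in LIP libraries, against 760 and 299 in NL libraries. Slc4a1, Ermap and Rhag were the markers called higher. B lineage markers were called higher in 6 of 9 cases, at 103 to 107 CPM in LIP libraries and 84.5 to 86.7 in NL libraries. Megakaryocyte markers were called higher in 5 of 8 cases, at 213 to 223 CPM in LIP libraries and 188 to 204 in NL libraries. Itga2b, which was not called, made up most of that sum, at 113 to 124 CPM in LIP libraries and 104 to 119 in NL libraries. T and NK cell markers were called higher in 4 of 7 tested cases, at 159.7 to 175 CPM in LIP libraries and 142 to 151 in NL libraries. Nkg7 made up most of that sum, at 133 to 148 CPM in LIP libraries and 121 to 130 in NL libraries. These single markers were named after their values were seen. LSK markers were called higher in 3 of 10 cases and lower in 0, at 2763 to 2797 CPM in LIP libraries and 2672 to 2692 in NL libraries. The part of these lineages in the differences above was not tested.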

How the data were processed

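PolyA-selected RNA of 6 LSK libraries, 3 LIP and 3 NL, was sequenced as 100 bp paired-end reads, per the labels' protocols. The deposited table held the authors' estimated counts, FPKM and TPM per gene and library. Per the submitters' processing notes, STAR, HTSeq and the build GRCm38 are listed, with no version or role given; the tool behind those counts was not given in the sources used here. Of the values in a library, 86.3% to 86.8% were whole numbers as written, and 13481 genes were whole in all libraries; genes without whole counts may hold reads divided between genes or copies and are less certain. FPKM served only to derive the authors' effective length. The 6 deposited columns of group means were not used.

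Whole counts had been assumed when the test was chosen, so the deposited estimated counts were rounded first. Genes were filtered with filterByExpr, which kept 12564 and left out 3839. LIP was compared with NL in edgeR 4.0.16 under R 4.3.3 by its quasi-likelihood test, with TMM factors, robust estimation and no covariate. Log2 fold changes are LIP over NL, and their standard errors were computed from the quasi-likelihood F statistic, and means are given with SD over n = 3. Alternatives were DESeq2 1.42.0, limma-voom (limma 3.58.1), other scaling factors and filters, whole-count genes only, an offset for transcript length (lowess span 0.3), a replicate block and leaving out each library. Two-sided tests with TPM and a pseudocount of 1, uncentred and centred, were added after seeing the data. The procedure was tested on simulated data.

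The 35 genes and the lists were chosen with earlier results of these data known. All 35 were to be accounted for; of the 112 other pathway genes, the rule named the 10 called genes with the largest absolute log2 fold change, and Epas1, Arnt, Vhl, Myc, Txnip, Pdk4 and Bnip3l. Hkdc1, Pgk2, Fbp2 and Nos2 were not analysed here. Promoter windows are RefSeq sequences on GRCm38.p6, matched for 34 of the 35 genes by symbol or gene identifier.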

Additional observations from a re-analysis of the deposited data

How the results depend on the processing

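Counting error alone came to between 14.9% (Gapdh) and 96.8% (Ankrd37) of the standard error of a log2 fold change among the 35 genes, with 89.5% for Ddit4 and 81.8% for Hk2. Causes of the changes below were not tested. Same-numbered libraries correlated at 0.030, -0.016 and -0.11 over genes, after the mean of each group was taken out. Deviations within a group of 3 libraries are tied to each other, so these values cannot show whether the numbers pair the libraries. With a replicate block 7 of the 35 genes were called higher and 6 lower, and no call among the 35 changed. Of all tested genes, 3729 were called in either direction with that block.

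In all 3760 genes were called, and 2376 by DESeq2. Of the 35 genes 11 were called higher and 3 lower with library totals alone, and 23 higher and 1 lower in uncentred TPM. Leaving out each library gave 5 to 7 higher and 4 to 6 lower. Of the 91 other pathway genes tested, 23 were called higher and 9 lower with library totals, beside 21.9% and 10.4% of all tested genes. In uncentred TPM 36 were called higher and 1 lower, beside 36.4% and 4.30% of all tested genes. In centred TPM 10 were called lower, beside 12.2%. With the length offset 11 were called lower, and 3351 of all tested genes were called in either direction. Leaving out each library gave 10 to 12 higher and 11 to 19 lower, with 12 lower without NL library 2 and 11 without LIP library 2. Over all tested genes, leaving out each library gave 2987 to 3397 calls in either direction. As shares of summed CPM, the difference in Hk2 share was 1.28 percentage points, against 0.862 in TPM, and that of Aldoc -0.195, against -0.110.

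In uncentred TPM the sign turned, in log2, for Gapdh 0.044, Pgk1 0.10, Pkm 0.11, Ldha 0.0073, Ldhb 0.051, Slc2a3 0.12, Pdha1 0.12, Hif1a 0.0049, Arrdc4 0.077, Txnip 0.031, Bnip3l 0.043, Bsg 0.039, Pgls 0.0030 and Taldo1 0.033. With library totals the sign turned, in log2, for Pgk1 0.017, Pkm 0.023, Slc2a3 0.035 and Pdha1 0.040. With the length offset the sign turned, in log2, for Pgk1 0.0004, Vegfa -0.0077, Pgls 0.012 and Mif 0.078. In centred TPM the sign turned, in log2, for Slc2a3 0.0016 and Pdha1 0.0056. With at least 50 counts in every library of a group the sign turned, in log2, for Pdha1 0.0012. Leaving out each library turned the sign of genes that were not called, with ranges of Pfkl -0.011 to 0.051, Pfkm -0.021 to 0.043, Aldoa -0.023 to 0.038, Eno1 -0.017 to 0.028, Pkm -0.033 to 0.0006, Slc2a3 -0.018 to 0.0051, Pdha1 -0.020 to 0.011, Pdk3 -0.020 to 0.056, Pfkfb4 -0.017 to 0.11, Vegfa -0.062 to 0.067, Bnip3 -0.015 to 0.035 and Vhl -0.0061 to 0.018.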

Other observations

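The authors' effective length of a gene, the transcript length behind their FPKM, differed between libraries. Arrdc4 had effective lengths of 3211, 3343 and 2877 bases in LIP libraries, against 3432, 3810 and 3355 in NL libraries. Every LIP library was below every NL library, and the means differed by -11.0%. Of the 35 genes, Ankrd37 had the widest such difference, with a mean of 927 bases in LIP libraries and 877 in NL libraries. Its lengths were 990, 899 and 891 bases in LIP libraries, against 863, 883 and 887 in NL libraries. LIP library 1 lay far above the rest, and Ankrd37 had only 17 to 27 counts per library. Both genes were chosen after their values were seen, and no test was run on lengths.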
